A study of Mus musculus with 4 samples.

Results

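Solitary shared CTCF sites are the places where CTCF was mapped in both splenic B cells and splenic plasmablasts and where nothing else was mapped nearby. A site was taken as shared when a B cell peak on an autosome overlapped a plasmablast peak by at least 1 bp. It was taken as solitary when, apart from that partner, no peak of either list had its midpoint within 150 kb of the midpoint of the B cell peak. The members were thus chosen from the listed peak positions of the same libraries, and their number and their isolation are a description. Peak scores did not enter the rule, except that a peak had to be listed, but they come from the same libraries and are described without a test. Of 24186 shared autosomal sites, 310 were solitary (1.28%, exact 95% binomial interval 1.14 to 1.43%) and 23876 had closer company. The lists held 36381 B cell and 31086 plasmablast peaks in all.

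Binding was measured by chromatin immunoprecipitation sequencing, with 1 CTCF and 1 input library for each cell type of C57BL/6 mice at 6 weeks of age. The B cells were spleen cells kept by a magnetic CD43-negative selection and had no treatment given in the labels. The plasmablasts, antibody-secreting cells that still divide, were sorted from spleen by surface CD138 after a retro-orbital injection of 50 µg lipopolysaccharide 3 days earlier. A CD138 sort or a CD43 selection sets which cells enter a library, and the labels give neither the sex of the mice, nor how many were used, nor the purity reached. Sequencing used a Genome Analyzer II for B cells and a HiSeq for plasmablasts, so instrument and cell type cannot be told apart. Because each cell type had a single CTCF library, replicate error could not be estimated, no p-value was computed, and intervals cover counting error over sites only. Read depth is unknown.

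CTCF is a zinc finger protein that recognises a long DNA motif and is known as an insulator and as an anchor of chromatin loops. In the loop extrusion model, cohesin slides along the fibre and halts at bound CTCF, so that loops form between sites whose motifs face each other. CTCF sites are commonly found in groups at the borders of chromatin domains and near active genes, and long stretches without genes hold few of them. In developing B cells CTCF is known for its part in folding the immunoglobulin loci. A site with no neighbour over long distances is therefore an unusual setting for this protein.

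The solitary sites stood in stretches of DNA without peaks that were mostly far longer than the rule required. The distance to the nearer flanking peak had a median of 225.9 kb (quartiles 179.7 and 316.6 kb), against 8.38 kb (3.66 and 17.96 kb) for the other shared sites, a gap that the rule itself sets. The distance to the farther flanking peak, which the rule bounds only from below, had a median of 561.3 kb. It exceeded 1 Mb at 71 members (22.9%). The farther flank was a median of 2.04 times as long as the nearer one. From flank to flank, the peak-free stretch around a member had a median of 815.4 kb over the 309 members with a peak on both sides, and 121 of these stretches were longer than 1 Mb. The remaining member was the outermost listed site of its chromosome. Of the 310 members, 245 had no other solitary site as their next neighbour on either side, while 28 pairs and 3 triplets of members followed each other directly. The 65 members in these runs were 21% of all members, whereas 1.28% of all shared autosomal sites were solitary. How often members would adjoin given the spacing of the peaks was not tested.

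The most isolated member lay on chromosome 12 at 63994234 to 63994538 (mm9, 1-based, B cell peak), with 3510 kb free of peaks before it and 1924 kb after it. It was a weak to middling site, ranked at the 32.1st percentile among B cell peaks (score 34.3) and at the 25.5th among plasmablast peaks (score 9.8). The score is the authors' own value for each peak, its unit is not stated, and it served here only to rank peaks within a list. The second most isolated member, on chromosome 8 at 6572302 to 6572606, was much stronger, at the 70.3rd and 78.3rd percentiles with scores of 123.2 and 40.8. Its nearest other peak was 1575 kb away. The third, on chromosome 14 at 40346032 to 40346336, lay 1256 kb from the next peak and at the 35.9th and 24.1st percentiles. The next most isolated members were on chromosome 8 at 45111302 to 45111606 (nearest peak 1031 kb away) and on chromosome 3 at 118131502 to 118131806 (989.8 kb away). Both were weak, with percentiles of 16.9 and 5.17 in B cells and 13.99 and 14.9 in plasmablasts. Of the 5, 4 thus lay below the median of both lists.

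Solitary sites were weaker than other shared sites in both cell types. Ranked within the B cell list, their median was at the 44.8th percentile (quartiles 24.0 and 59.6), against the 66.0th (45.3 and 83.3) for the other shared sites. In the plasmablast list the medians lay at the 38.1st percentile (18.5 and 56.4) and at the 56.9th (31.7 and 79.4). In raw scores the B cell medians were 51.9 and 106.5, and the plasmablast medians 13.9 and 23.7. The difference in median percentile was -21.2 points in B cells and -18.8 points in plasmablasts. The interquartile ranges of both groups overlapped in both lists, so the difference is a shift between broad distributions and not a separation. Members covered nearly the whole range, from the 0.944th to the 99.8th percentile in B cells and from the 0.199th to the 99.0th in plasmablasts. With the other shared sites reweighted to the chromosomes on which members lie, the difference was -20.9 points in B cells and -18.5 in plasmablasts.

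The shortage was steepest among the strongest sites. In the top decile of the B cell list stood 11 members (3.55%, interval 1.78 to 6.26%), against 15.1% of all shared autosomal sites. In the top decile of the plasmablast list stood 3 members (0.968%, interval 0.2 to 2.8%), against 12.4% of all shared autosomal sites. At the weak end, 16 members were in the bottom decile of the B cell list (5.16%, interval 2.98 to 8.25%), against 1.61% of all shared autosomal sites. In the bottom decile of the plasmablast list there were 36 (11.6%, interval 8.27 to 15.7%), against 6.94%. Members made up a larger share than other shared sites in each of the 6 lower deciles of either list and a smaller share in each of the 4 upper ones. Read the other way, 4.10% of the shared sites in the bottom B cell decile were solitary (16 of 390) and 0.301% of those in the top decile (11 of 3651). In plasmablasts this went from 2.14% (36 of 1679) to 0.100% (3 of 2993).

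**Figure D1:**
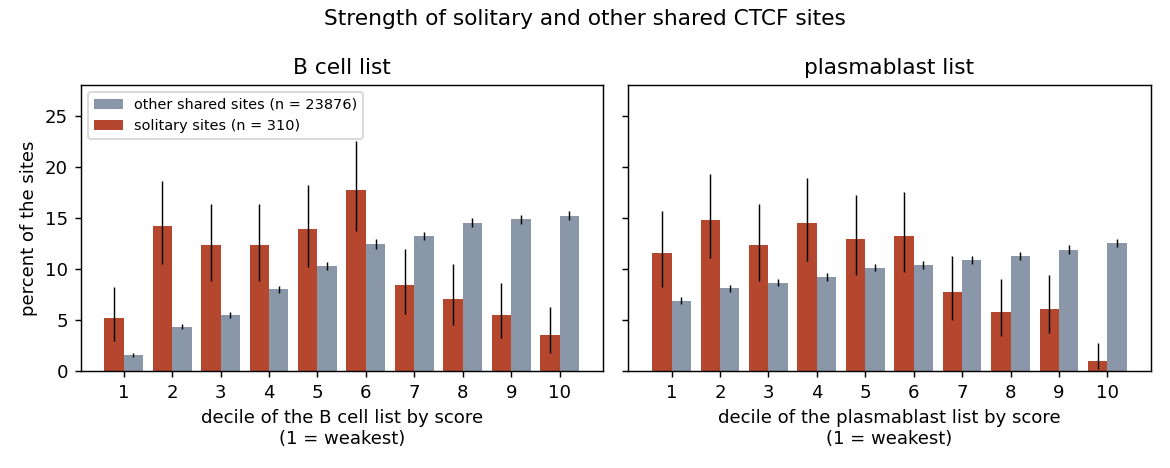
Percent of the 310 solitary sites (red) and of the 23876 other shared autosomal sites (grey) that fall in each decile of the B cell list (left) and of the plasmablast list (right) by score, with exact 95% binomial intervals as bars. Red bars exceed grey ones in deciles 1 to 6 and fall below them in deciles 7 to 10 of both lists.

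Strength declined with distance from the nearest other peak well before the 150 kb limit. Shared sites within 2 kb of another peak had median percentiles of 70.7 among B cell peaks and 61.1 among plasmablast peaks (n = 3254). At 10 to 50 kb the medians were at the 63.5th and 54.4th percentiles (n = 9157). At 50 to 100 kb they were at the 54.9th and 47.9th (n = 1047), and at 100 to 150 kb at the 46.3rd and 40.7th (n = 249). Members at 150 to 200 kb stood at the 51.1st and 37.9th percentiles (n = 114), those at 200 to 300 kb at the 44.8th and 39.4th (n = 111), and those farther than 300 kb at the 37.4th and 33.7th (n = 85). The members therefore form the far end of a gradient, and sites at 100 to 150 kb had medians within 3 points of those of all members. Neither list fell at every step: the B cell median at 150 to 200 kb was above that at 100 to 150 kb, and the plasmablast median at 200 to 300 kb was above that at 150 to 200 kb. The share of sites above the median of the B cell list went from 78.0% within 2 kb to 29.4% beyond 300 kb, and that above the plasmablast median from 62.5% to 29.4%.

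**Figure D2:**
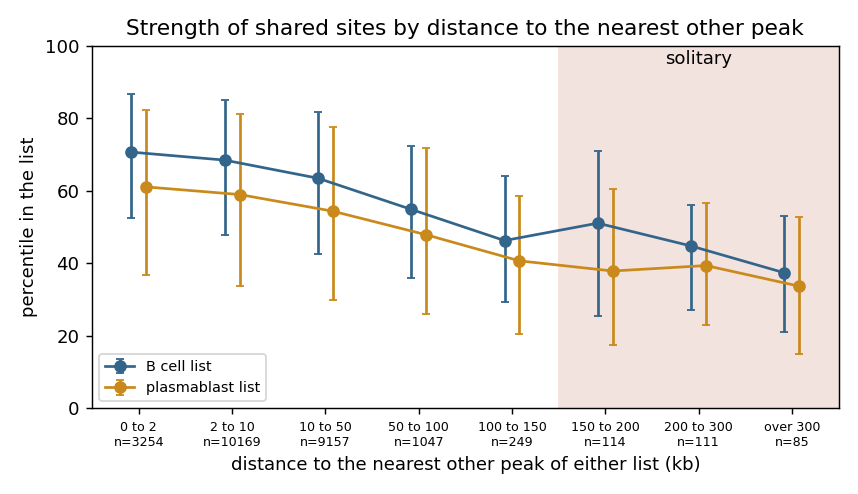
Percentile of shared autosomal sites in the B cell list (blue) and in the plasmablast list (orange) by distance in kb to the nearest other peak of either list. Points are medians and bars run from the lower to the upper quartile. The shaded bins hold the solitary sites, whose medians lie between 33.7 and 51.1, while the sites within 2 kb of another peak have medians of 70.7 and 61.1.

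At the limit itself the sites were mixed. The 3 members just inside it, with the nearest peak 150.5, 150.6 and 151.2 kb away, ranked at the 27.2nd, 21.1st and 63.8th percentiles in B cells. In plasmablasts they were at the 14.9th, 28.6th and 30.5th. The 3 sites just outside it, at 149.97, 149.94 and 149.92 kb, lay at the 92.7th, 68.7th and 55.9th percentiles in B cells and at the 61.1st, 24.8th and 16.7th in plasmablasts. The last 2 of these are each other's nearest neighbour on chromosome 4.

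Most members that were weak in one cell type were weak in the other. Below the median of both lists lay 153 members (49.4%, interval 43.7 to 55.1%), against 23.8% of all shared autosomal sites. Above the median of both lay 79 (25.5%, interval 20.7 to 30.7%), against 50.5%. A further 52 were above the B cell median only (16.8%, interval 12.8 to 21.4%), against 19.5% of the other shared sites. Above the plasmablast median only were 26 (8.39%, interval 5.55 to 12%), against 6.19% of the other shared sites. Both intervals take in the share of the others. In the top decile of both lists there were 2 members (0.645%, interval 0.0782 to 2.31%), against 7.45% of all shared autosomal sites.

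These 2 members were strong CTCF sites without company. On chromosome 4 at 24825031 to 24825335 the scores were 263.0 in B cells and 80.6 in plasmablasts, at the 96.6th and 98.7th percentiles. Its flanking peaks were 177.0 kb and 383.5 kb away, and the nearer one was an unshared plasmablast peak at the 9.39th percentile of its list. On chromosome 14 at 99541508 to 99541812 the scores were 233.4 and 84.7, at the 92.7th and 99.0th percentiles, the latter the highest plasmablast percentile of any member. Here the flanking peaks were 391.5 and 752.5 kb away, so this site is strong within 1144 kb that hold no other listed peak. Both sites had midpoints 6 or 7 bp apart in the cell types.

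By the mean of both percentiles the next member was on chromosome 18 (9450239 to 9450543). It was followed by a member on chromosome 15 (67265880 to 67266184) and a member on chromosome 3 (5860510 to 5860814). These 3 lay at the 95.3rd, 90.6th and 88.1st percentiles in B cells and at the 88.7th, 88.8th and 90.6th in plasmablasts. The one on chromosome 3 had 1471 kb without peaks on its farther side. The highest B cell percentile of any member (99.8th, score 376) was on chromosome 3 at 14381746 to 14382050, a site at the 75.4th percentile in plasmablasts. Its midpoints in the cell types were 204 bp apart, so the peaks overlapped only at their edges.

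The weakest member by the same mean was on chromosome 5 at 39739543 to 39739847, where the score was 14.8 in B cells (3.77th percentile) and 4.3 in plasmablasts (2.04th). It had been listed in both cell types at nearly the same place all the same, with midpoints 16 bp apart and 266.5 kb to the next peak. The 4 next weakest were on chromosomes 3, 12, 5 and 1, at the 8.55th, 0.944th, 11.97th and 10.3rd percentiles in B cells and at the 0.676th, 10.3rd, 0.199th and 2.04th in plasmablasts. Their midpoints were 55, 118, 47 and 79 bp apart, wider than at the 5 members with the highest mean percentile (5 to 34 bp). They were closer than the 204 bp at the member with the highest B cell percentile. The one on chromosome 12, at 42781284 to 42781588, stood beside a peak-free flank of 2487 kb.

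A few members ranked far apart in the cell types. On chromosome 10 at 112238675 to 112238979 the site was at the 18.4th percentile in B cells and at the 87.2nd in plasmablasts, the largest difference upward in plasmablasts (68.8 points). Next in that direction were chromosome 3 at 126105767 to 126106071 (24.9th and 81.3rd) and chromosome 5 at 40352293 to 40352597 (10.3rd and 66.0th). In the opposite direction, chromosome 4 at 55837004 to 55837308 was at the 96.7th percentile in B cells and at the 27.95th in plasmablasts (-68.8 points). Chromosome 8 gave the other two, at 3956114 to 3956418 (86.1st and 19.1st) and at 49307747 to 49308051 (57.3rd and 2.51st). Midpoints at the latter 3 sites were 4, 5 and 9 bp apart. No replicate shows how often a site changes rank this much between libraries of 1 cell type.

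**Figure D3:**
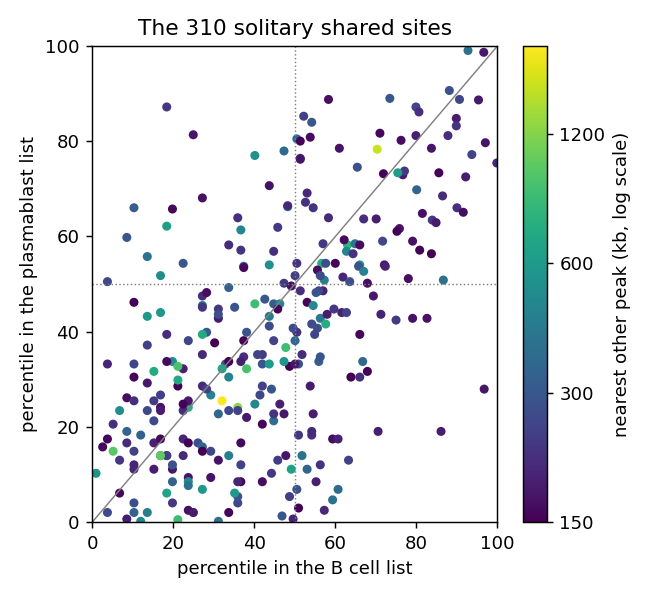
Each of the 310 solitary sites by its percentile in the B cell list (horizontal) and in the plasmablast list (vertical), coloured by the distance to the nearest other peak in kb on a log scale. Dotted lines mark the list medians and the grey line equal percentiles. The lower left field holds 153 sites and the upper right field 79.

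Agreement between the cell types was looser over solitary sites than over the rest. The Spearman rank correlation of the B cell with the plasmablast percentiles was 0.560 over the 310 members and 0.704 over the 23876 other shared sites. These correlations are across sites of the same pair of libraries and describe them only. Members cover the weak part of the lists more densely, and their correlation was not compared with that of other sites of the same range of strength. The plasmablast percentile minus the B cell percentile had a median of -5.87 points in members and -7.35 points in other shared sites. The B cell percentile was the higher at 189 members (61%, interval 55.3 to 66.4%), against 66.5% of the others.

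At like plasmablast strength, solitary sites were weaker in B cells. Members up to the 18.5th plasmablast percentile had a median at the 25.5th B cell percentile, against the 36.7th for other shared sites in the same range. From the 18.5th to the 38.1st percentile the medians were at the 33.7th and 47.3rd, and from the 38.1st to the 56.4th at the 50.5th and 60th. In the open range above, where members sit lower within it, they were at the 67.0th and 81.7th. The reverse comparison did not show such a deficit below the top range. At like B cell strength, the plasmablast medians were at the 20.9th percentile in members and the 20.6th in others below the 24.0th B cell percentile, at the 32.7th and 28.6th up to the 44.8th, and at the 41.6th in both up to the 59.6th. Above that they were at the 59.1st and 72.7th.

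Midpoints of the peaks in both cell types were slightly farther apart at solitary sites than at other shared sites. The overlap that the rule requires bounds this distance for both groups. Midpoints of the overlapping peaks were a median of 23 bp apart (quartiles 11.2 and 40 bp), against 17 bp (8 and 32 bp) for other shared sites. Offsets of at most 50 bp were found at 263 members (84.8%, interval 80.4 to 88.6%) and at 88.3% of the others. Weak sites had wider offsets in both groups, and at like mean percentile the groups came closer. Members up to a mean percentile of 25.2 had a median offset of 31 bp, against 29 bp for other sites in that range. From there to 38.4 the medians were 27 and 23 bp, and from 38.4 to 57.3 they were 23 and 21 bp. Above 57.3 they were 15.5 and 13 bp, so members kept the wider median in every range.

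Every autosome had solitary sites, from 8 on chromosome 19 to 25 on chromosome 6. The share of shared sites that were solitary ran from 0.635% on chromosome 11 (13 of 2047, interval 0.339 to 1.08%) to 2.01% on chromosome 3 (22 of 1096, interval 1.26 to 3.02%). The ratio of these shares was 3.16 with the 150 kb window, and it was 2.12 at 100 kb, 4.36 at 200 kb and 1.87 at 300 kb. Both chromosomes were picked as the extremes of 19 on this percentage, which favours a large ratio, so it is given without an interval. Chromosomes 15, 6, 12 and 18 followed chromosome 3 with 1.92%, 1.90%, 1.84% and 1.81%. Chromosomes 5, 7 and 19 followed chromosome 11 upward with 0.8%, 0.978% and 0.993%. The interval of chromosome 11 was the only one of 19 that left out the autosomal value of 1.28%, and chromosomes next to each other in this order had overlapping intervals.

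Members and other shared sites were divided differently over some autosomes. Chromosome 11 held 8.52% of the other shared sites and 4.19% of the members, and chromosome 5 held 7.27% and 4.52%. In contrast, chromosome 6 held 5.41% of the others and 8.06% of the members, and chromosome 3 held 4.5% and 7.1%. These were the widest differences among the 19 autosomes. For chromosomes 5, 6 and 3 the interval of the solitary share took in the autosomal 1.28%, and for chromosome 11 it did not. The 5 autosomes densest in shared sites (11, 19, 17, 5 and 9) had 62 members among 7158 shared sites (0.866%, interval 0.665 to 1.11%). The 5 sparsest (3, 18, 14, 13 and 12) had 78 among 4474 (1.74%, interval 1.38 to 2.17%). Over the 19 autosomes the solitary share had a Spearman correlation of -0.785 and a Pearson correlation of -0.727 with the number of shared sites per Mb. Both measures contain the count of shared sites, so part of this relation is built in. Per unit of length the members showed little of it: there were 1.29 members per 10 Mb between first and last listed peak, with 0.938 on chromosome 5 and 2 on chromosome 15 as extremes. That density had a Spearman correlation of -0.176 and a Pearson correlation of -0.102 with shared sites per Mb.

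**Figure D4:**
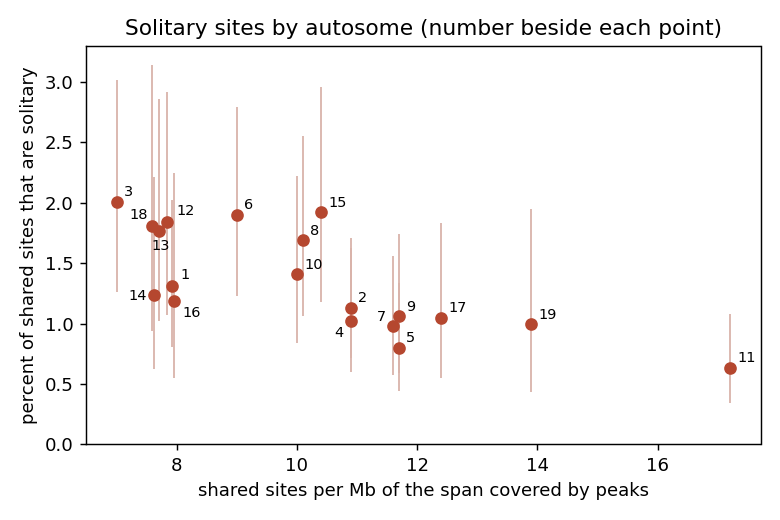
Percent of shared sites that are solitary on each of the 19 autosomes against the number of shared sites per Mb between the first and last listed peak, with exact 95% binomial intervals as bars and the chromosome number beside each point. Chromosome 11, at 17.2 shared sites per Mb, has the lowest percentage (0.635%), and chromosome 3, at 7.01 per Mb, the highest (2.01%).

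The lower strength of solitary sites was found on nearly all autosomes. Their median B cell percentile was below that of the other shared sites of the same chromosome on 18 of 19, chromosome 11 being the exception with 72.1 against 68.8. Their median plasmablast percentile was also lower on 18 of 19, with chromosome 16 the exception at 56.4 against 53.9. Those chromosomes had 13 and 9 members. The widest B cell difference was on chromosome 5, where 14 members had a median at the 24.8th percentile and the others at the 65.4th. In plasmablasts it was on chromosome 8, where 22 members stood at 24.7 and the others at 56.6.

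Along the chromosomes, solitary sites lay more often in the first stretches and less often in the last one than other shared sites, with no steady trend between them. With 0 set at the first and 100 at the last listed peak of each chromosome, the stretch from 0 to 20 held 22.9% of the members and 15.3% of the other shared sites, and that from 20 to 40 held 24.8% and 16.3%. The last stretch, from 80 to 100, held 50 members (16.1%, interval 12.2 to 20.7%) and 29.6% of the others. The middle stretch, from 40 to 60, held 13.9% of the members (interval 10.2 to 18.2%) and 18.2% of the others, and that from 60 to 80 held 22.3% (interval 17.8 to 27.3%) and 20.7%.

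Members were spread over many places. Of 257 windows of 10 Mb that held a shared site, 84 had no member, 81 had 1, 59 had 2 and 24 had 3. The richest windows were on chromosome 6 from 40000001 to 50000000, with 6 members among 73 shared sites, and on chromosome 15 from 50000001 to 60000000, with 5 among 65. The 6 members on chromosome 6 were weak in B cells, with a median at the 18.4th percentile, but less so in plasmablasts, at the 44.1st. In some windows poor in peaks a large part of the shared sites was solitary, as on chromosome 7 from 40000001 to 50000000 (3 of 8) and on chromosome 10 from 100000001 to 110000000 (4 of 16). These windows were chosen after their values were seen.

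The peak nearest to a member was less often shared than the peak nearest to another shared site. The flanking peak on the farther side was not classified. The nearest other peak was itself shared for 156 members (50.3%, interval 44.6 to 56.0%), against 61.2% of the other shared sites. It was a B cell only peak for 77 members and a plasmablast only peak for 77 (24.8% each, interval 20.1 to 30.0%). For the other shared sites these were 24.1% and 14.7%. Among the unshared nearest peaks, B cell only peaks were thus 50.0% beside members (interval 41.8 to 58.2%) and 62.1% beside the others (interval 61.1 to 63.1%). Unshared neighbours were weak in both groups. Their medians were at percentiles 15.2 (B cell only) and 27.3 (plasmablast only) of their own lists beside members, and at 22.4 and 29.9 beside other shared sites. Counted by each list alone, 480 shared sites had no other B cell peak within 150 kb and 500 no other plasmablast peak. The 310 members are those solitary by both lists. Had unshared peaks been ignored, 857 shared sites would have been solitary. The 547 added in that way had medians at the 50.9th and 45.5th percentiles, between those of members and of all other shared sites.

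Peaks listed in 1 cell type only were solitary too, more often in plasmablasts than in B cells. By the same rule 174 of 11500 autosomal B cell only peaks (1.51%, interval 1.30 to 1.75%) and 293 of 6049 plasmablast only peaks (4.84%, interval 4.32 to 5.42%) had no other peak within 150 kb. These were weaker than the solitary shared sites, with medians at percentiles 13.6 (B cell only) and 19.8 (plasmablast only) of their own lists, against 44.8 and 38.1. Of the solitary B cell only peaks 3.45% lay above the median of their list, and of the solitary plasmablast only peaks 13.7%. Unshared peaks that were not solitary were weak too, with medians at percentiles 19.8 (B cell only) and 27.3 (plasmablast only). Low strength was thus common to unshared peaks with and without company.

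Solitary plasmablast peaks were less often shared than other plasmablast peaks of like strength, whereas weak solitary B cell peaks were more often shared than other weak B cell peaks. Of the 603 solitary autosomal plasmablast peaks 51.4% were shared (interval 47.3 to 55.5%), against 80.6% of the 29632 others. Of the 484 solitary B cell peaks 64.0% were shared (interval 59.6 to 68.3%), against 67.8% of 35202 others. The shared solitary peaks of both lists are the same 310 members, so the results of the lists are not independent. The remaining solitary peaks are the 174 B cell only and 293 plasmablast only peaks. Sharing and isolation are also the calls that define the members, so these shares are a description and not a test. Since solitary peaks are weak, the comparison was repeated within ranges of the list percentile. Below the 25th percentile, 38.1% of solitary plasmablast peaks were shared against 63.2% of the others. From the 25th to the 50th percentile these were 54.3% and 78.0%, and from the 50th to the 75th 66.4% and 86.5%. Above the 75th percentile 32 of 35 solitary peaks were shared (91.4%, interval 76.9 to 98.2%), which takes in the 93.9% of the others. In the B cell list the order was the opposite at the weak end. Below the 25th percentile 38.8% of solitary peaks (interval 32.1 to 45.7%) and 23.3% of the others were shared, and from the 25th to the 50th 71.0% (interval 62.7 to 78.4%) and 59.4%. From the 50th to the 75th the shares were 94.8% (interval 88.4 to 98.3%) and 88.6%, a difference at the edge of the counting interval, and above it 97.5% and 99.2%. Solitary peaks by construction have no unmatched peak of the other list close by, whereas other unshared peaks can. Leaving out the other unshared peaks within 2 kb of a peak of the other list can only raise the shared percentage of the others. It could therefore reverse only the differences in which solitary peaks were more often shared, those of the B cell list below the 75th percentile. From the weakest range upward, these went from 15.5, 11.6 and 6.24 points to 14.1, 8.78 and 4.3 points. The part that unlike depth or instrument of the libraries plays in them was not tested.

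**Figure D5:**
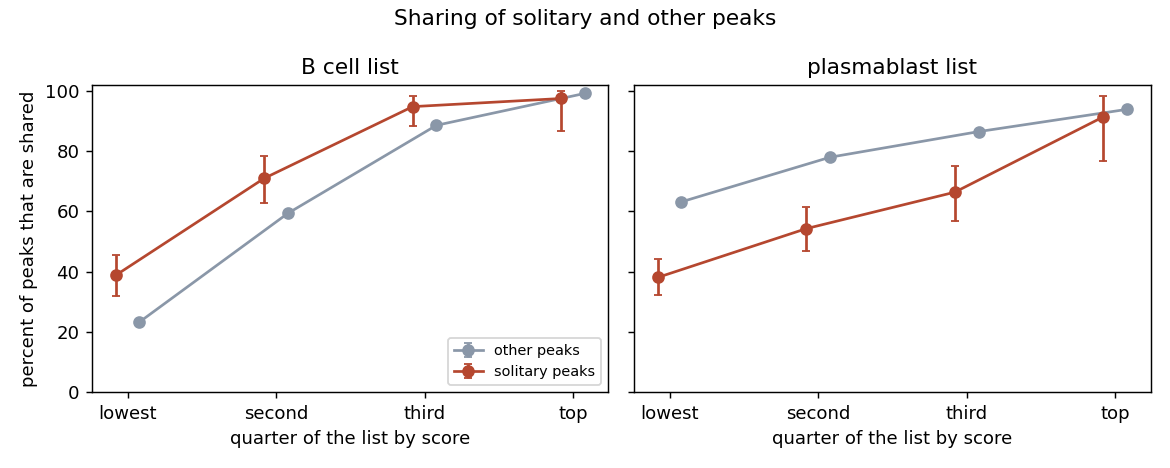
Percent of autosomal peaks that are shared with the other cell type, for solitary peaks (red) and all other peaks (grey), in 4 successive ranges of 25 percentiles of the B cell list (left) and the plasmablast list (right) by score; bars are exact 95% binomial intervals. Red points lie above grey ones in the lower 3 ranges on the left and below them in the lower 3 ranges on the right.

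Beyond the autosomes, 24 of the 516 shared sites on the X chromosome were solitary by the same rule (4.65%, interval 3.00 to 6.84%), a larger share than on any autosome. Their median percentiles were 33.3 in B cells and 41.4 in plasmablasts. Shared sites and members per unit of length were not computed for the X chromosome, so its share is not set against its density. No gene is named at any site and no sequence is shown, because no mm9 genome or annotation was used here.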

How the data were processed

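CTCF and input DNA of B cells and plasmablasts were sequenced (4 samples), and the 2 CTCF peak lists were analysed; input libraries were not analysed here. Per the submitters' processing notes, the authors used Bowtie, HOMER and build mm9, with no threshold or treatment of the input named there. The deposited score of each peak has no stated unit and was used only as a mid-rank percentile within its list. B cell peaks span 305 bp each and plasmablast peaks 179 bp, with 1 exception. Peak names skip numbers (36381 peaks against numbers summing to 57501 in B cells, 31086 against 51868 in plasmablasts), so a site is solitary only among the listed peaks. Positions were read as BED, and 1 was added to starts.

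Every shared B cell peak had 1 partner. bedtools 2.31.1 gave the same 24186 shared autosomal peaks, and a count of pooled midpoints the same 310 members. The finder was also tested on simulated data, but no simulated distance lay near the 150 kb limit, so that test did not check the limit itself. Shares have exact (Clopper-Pearson) 95% intervals. Sites named are the 5 most isolated, the 5 highest and 5 lowest by mean percentile, and the 3 with the largest percentile difference in each direction. The 3 sites nearest the 150 kb limit on each side are also described and were not among those first planned. The members, lists and comparisons were chosen with earlier results of these data known, and the site with the highest B cell percentile was added after its value was seen. Python 3.11.15, numpy 2.4.6, pandas 2.3.3, scipy 1.17.1 and matplotlib 3.10.9 were used.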

Additional observations from a re-analysis of the deposited data

How the results depend on the processing

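Solitary sites stayed weaker than the other shared sites in both lists under each alternative for which the difference was computed, which leaves out the one with X included and the one ranked among shared sites only. Of 113 alternative values, 96 stayed within the counting interval (or within 1.5 times the count) and 17 moved. Most alternatives share their members with the main set, so part of this agreement is built in. All 310 stayed members at 100 kb, with each change of the neighbours counted and with distances from edge to edge. The members at 200 kb and 300 kb, and under both stricter overlap rules, were all among the 310. A change of direction was defined only for differences, and none of those changed direction. Some had no room to, since the 2 kb filter could not reverse a difference that was already negative. The number of members follows the window, with 559 at 100 kb, 196 at 200 kb and 85 at 300 kb, and the kind of neighbour counted, with 857 for shared sites only, 480 for B cell peaks only and 500 for plasmablast peaks only. At 300 kb the median B cell percentile was 37.4, the difference from other shared sites -28.6 points, the top B cell decile share 1.18% and the bottom plasmablast decile share 17.6%. With shared sites as the only neighbours, the B cell median was 48.7 and the top plasmablast decile share 3.15%. Ranked among shared autosomal sites only, the medians were 24.6 in B cells and 31.2 in plasmablasts. With lists restricted to peaks at or above their median scores, 343 sites were solitary, of which 79 were among the 310. Percentiles were ranked anew within the restricted lists, so their deciles are not those of the full lists. On that scale the B cell difference was -17.6 points, the bottom B cell decile share 10.2% and the top plasmablast decile share 4.96%. Leaving out unshared peaks within 2 kb of the other list was chosen after seeing the data. No paired analysis was possible because each cell type had 1 library, which also left no replicate to omit. As depth is unknown, a stretch without listed peaks is not shown to lack CTCF.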
